A study of Mus musculus with 8 samples.

Results

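Half-methylated CpG-dense runs are stretches of mouse DNA that hold many CpGs close together and whose methylation lay near the middle of the scale. A run was made by joining CpG cytosines with at least 10 reads in all 8 libraries when the gap between them was at most 100 bp. The runs described here lie on chromosomes 1 to 19, hold 10 to 19 distinct CpGs and had a mean level over the 8 libraries from 35% to 65%. They number 1007 of the 15900 runs with 10 to 19 CpGs, or 6.33%, and of the 125876 runs with at least 3 CpGs. The mean level over all 8 libraries chose them, so their middle level is a description and not a result. The comparison of cocaine with saline mice was not used to choose them.

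The assay was reduced representation bisulfite sequencing (RRBS), which reads CpG-rich restriction fragments after bisulfite treatment has converted unmethylated cytosines. All mice were male and of genotype C57 BL/6. The groups were 4 mice of cocaine self-administration and 4 of saline self-administration, with 1 library per mouse and no other agent or allele in the labels. The tissue is labelled dDG DGC, taken here to be the dorsal dentate gyrus and its granule cells, dissected as a layer. The labels used here do not state the mice's age, the cocaine dose or the length of the self-administration. The libraries hold DNA methylation only, so the cell type label could not be checked on expressed markers. In bulk tissue, a level near 50% on each DNA molecule's CpGs, a mixture of methylated and unmethylated cells, and 1 methylated allele per cell cannot be told apart.

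In mammals, CpG-dense sequence is mostly unmethylated, and methylation at a promoter usually goes with silencing. Genomic imprinting is the best known source of a middle level. At many imprinted control regions, the copy from 1 parent is methylated in the germ line and keeps that mark in most tissues. The other copy stays unmethylated. Imprinted control regions of this kind steer genes that act in growth and in the brain. Middle levels also arise at the borders between unmethylated islands and methylated flanks, and where cells of a tissue differ.

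The promoters of 5 genes show the shapes that a middle level can take, and their sequences are printed here because the run and the promoter overlap and the level of each CpG is known. Each sequence is RefSeq's (build GRCm38.p6, whose primary chromosomes have mm10 coordinates), read 5′ to 3′ on the gene's strand from 250 bases before the gene's start to 50 bases after it. Capitals mark the CpGs measured in all 8 libraries within the run. Snrpn lies on the minus strand at chr7:60005150-60005449, Meg3 on the plus strand at chr12:109540746-109541045 and Lep on the plus strand at chr6:29059971-29060270. Map10 lies on the plus strand at chr8:125669568-125669867 and Pstpip1 on the plus strand at chr9:56089726-56090025.
Snrpn: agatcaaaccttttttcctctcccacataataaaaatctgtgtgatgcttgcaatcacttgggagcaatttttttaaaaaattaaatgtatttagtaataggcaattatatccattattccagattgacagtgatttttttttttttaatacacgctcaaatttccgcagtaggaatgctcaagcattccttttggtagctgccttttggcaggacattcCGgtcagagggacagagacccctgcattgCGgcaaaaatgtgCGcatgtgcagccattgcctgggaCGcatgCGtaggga
Meg3: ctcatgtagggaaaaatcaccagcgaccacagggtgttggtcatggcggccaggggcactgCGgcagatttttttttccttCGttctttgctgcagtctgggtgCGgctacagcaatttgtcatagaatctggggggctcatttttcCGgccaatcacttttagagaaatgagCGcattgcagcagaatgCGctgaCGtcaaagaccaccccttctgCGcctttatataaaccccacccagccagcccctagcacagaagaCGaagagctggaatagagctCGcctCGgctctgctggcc
Lep: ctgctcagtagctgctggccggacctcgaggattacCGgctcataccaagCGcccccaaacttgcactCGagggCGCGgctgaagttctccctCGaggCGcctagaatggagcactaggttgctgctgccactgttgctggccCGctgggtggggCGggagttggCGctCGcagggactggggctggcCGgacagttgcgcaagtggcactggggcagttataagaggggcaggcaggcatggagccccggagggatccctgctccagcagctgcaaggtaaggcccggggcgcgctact
Map10: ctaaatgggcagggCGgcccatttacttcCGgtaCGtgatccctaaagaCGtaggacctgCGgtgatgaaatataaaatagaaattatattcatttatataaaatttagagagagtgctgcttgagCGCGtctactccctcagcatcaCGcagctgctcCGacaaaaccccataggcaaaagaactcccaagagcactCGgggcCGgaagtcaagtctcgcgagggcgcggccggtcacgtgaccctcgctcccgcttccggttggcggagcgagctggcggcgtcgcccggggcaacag
Pstpip1: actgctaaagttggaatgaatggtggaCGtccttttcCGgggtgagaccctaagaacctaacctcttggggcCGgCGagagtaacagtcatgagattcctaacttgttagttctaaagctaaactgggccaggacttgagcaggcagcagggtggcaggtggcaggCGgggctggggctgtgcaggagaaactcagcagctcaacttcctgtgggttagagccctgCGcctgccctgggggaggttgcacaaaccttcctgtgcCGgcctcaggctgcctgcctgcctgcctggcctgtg

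Snrpn, which encodes a small nuclear ribonucleoprotein protein and is expressed from the paternal copy, was the most even of these promoters. Its 5 capital CpGs, from 30 bases before the start to 43 bases after it, had mean levels over the 8 libraries from 49.6% to 51.4%. At Meg3, a long noncoding RNA expressed from the maternal copy, the 11 capital CpGs ran from 31.0% to 42.3%. At Lep, the gene of the hormone leptin, the 12 capital CpGs ran from 38.4% to 70.6% with no steady slope: the CpG at base 29060064 read 38.4% and its neighbour at base 29060069 read 59.9%. In the means over the 8 libraries, these 3 promoters thus held CpGs of middle level throughout the measured part. Single libraries parted widely: the capital CpGs ran from 10.0% to 100% at Snrpn, 11.5% to 84.6% at Meg3 and 23.8% to 95.1% at Lep.

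The promoters of Map10 and Pstpip1 were methylated at one end and unmethylated at the other. At Map10, which encodes a microtubule-associated protein, the mean level was 88.8% at 216 bases before the start, 52.5% at 190, 32.0% at 124, 4.42% at 102 and 0% at 52 bases before it. No methylated read was seen at that last CpG in any library. At Pstpip1, a cytoskeletal adaptor gene of blood cells, the level was 91.4% at 213 bases before the start, 25.2% at 84 bases before it and 4.00% at 15 bases after it. The middle level of these 2 runs is therefore a mean over CpGs that were mostly near one or the other end of the scale.

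The runs met 35 promoter windows of the RefSeq table, and 3 short motifs were counted in them on both strands as a description. The sequence TGCCGC, the core of the site of the imprinting factor Zfp57, stood in 6 of the 35 windows (17.1%), the windows of Snrpn and Meg3 among them. It stood in 11.6% of all 31365 windows, and in 22.3% of the 13779 windows with at least 10 CpGs. CGCGCG stood in 5.71% of the 35 windows, 11.5% of all windows and 26.0% of the windows with at least 10 CpGs. CCGG, the cut site of the enzyme most used in this assay, stood in all 35 windows (100%), in 53.5% of all windows and in 88.9% of those with at least 10 CpGs. CCGG and the other motifs can overlap by a base or more.

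Middle levels were rare among CpG-dense runs. Of the 15900 runs with 10 to 19 CpGs, 65.3% had a level below 35% and 28.3% a level above 65%. The counts were nearly even across the window: the 5-point bins from 35% to 65% each held 160 to 176 runs. The limits therefore cut through a continuous range. Just inside stood a run within Tnxb (tenascin X) at 35.06% and a run within Pias4 at 64.95%, and just outside stood a run within Setd1b at 34.93% and a run near an end of Slc39a4 at 65.01%.

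**Figure D1:**
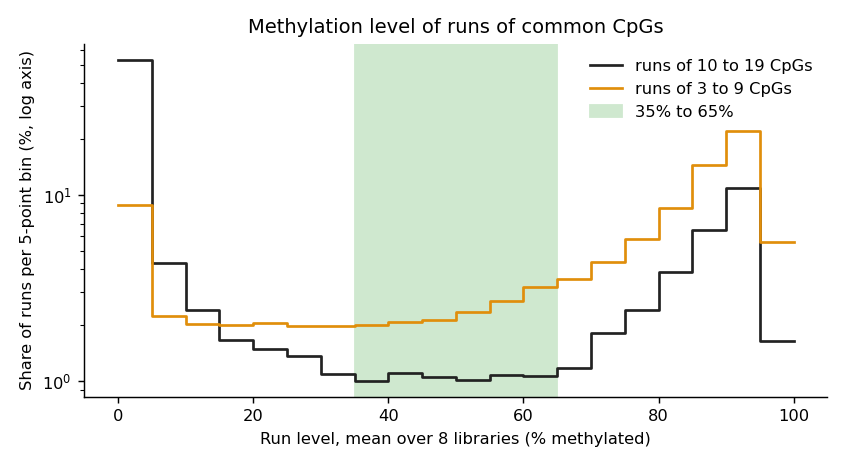
Share of runs (%, log axis) in each 5-point bin of the run level (mean over 8 libraries, % methylated), for runs of 10 to 19 CpGs and of 3 to 9 CpGs, with the window from 35% to 65% shaded. Runs of 10 to 19 CpGs peak below 5% and again between 90% and 95%, and the shaded window, which holds 6.33% of them, is the floor between the peaks.

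The typical half-methylated run was 292 bp long (median, range 54 to 728 bp), held 12 CpGs and was covered by 52.5 reads per cytosine and library. The median coverage in the other 14893 runs of 10 to 19 CpGs was 58.1 reads. Places differed: 57.4% of the half-methylated runs lay inside a gene and away from its ends, 16.1% within 1 kb of a gene's end and 3.18% (32 runs) met a promoter window. Of the other CpG-dense runs, 31.9% lay inside a gene, 33.0% near a gene's end and 18.0% met a promoter window. The remaining half-methylated runs lay between genes, 16.2% with the nearest protein-coding gene within 50 kb and 7.15% with none. The runs were scattered: joined within 5 kb they formed 979 loci, of which 26 held more than 1 run. A run at chr7:3219265-3219580 covered the hairpins of Mir291b and Mir292, microRNAs of embryonic stem cells, and read 45.6% over the 8 libraries. The runs at Mir26a-1 within Ctdspl and at Mir6927 within Mllt6 read 60.4% and 46.3%.

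Most of these runs were not evenly half-methylated. The SD over the CpGs of a run, taken on the mean level over the 8 libraries, had a median of 18.5 percentage points and ran from 0.962 to 40.2. It was 1.90 points in the other CpG-dense runs, where most levels lie near the floor of the scale and leave little room, and 17.2 points in the half-methylated runs of 3 to 9 CpGs. When the CpGs of a run were split at the middle into a left and a right side, the sides differed by at least 40 points in 97 runs and by under 10 points in 368. In 28 runs the lowest CpG stood under 10% and the highest over 90%. In 261 runs every CpG stood from 20% to 80%.

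The steepest runs went from nearly full methylation to almost none within the run. At Ctc1, a gene of telomere maintenance, a run near the gene's end (chr11:69035479-69036037) had CpGs from 0% to 97.1%. The run at chr7:119023817-119024185, 28606 bp from Gprc5b (a G protein-coupled receptor), went from 0.873% to 96.7%. The Map10 run (chr8:125669359-125669773) ran from 0% to 97.7% and the Pstpip1 run (chr9:56089653-56090230) from 2.60% to 91.9%. Of the 561 runs with other common cytosines within 1 kb outside them, 191 had flanks at least 20 points more methylated than the run, 112 had flanks at least 20 points less methylated, and 258 lay within 20 points.

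The imprinted genes held the most even runs. A list of 80 imprinted genes (75 matched the gene table) had 80 CpG-dense runs in or within 10 kb of its genes, of which 52 were below 35%, 14 half-methylated and 14 above 65%. That is 17.5% half-methylated, beside 6.33% of all CpG-dense runs. The SD over CpGs had a median of 5.34 points in these 14 runs, with a range of 0.962 to 11.4, beside 18.6 points in the 993 other half-methylated runs. Of the 10 runs with an SD under 5 points, 7 were imprinted-list runs. Another 5 fell among the 61 runs from 5 to 10 points, and none among the 715 runs with 15 points or more. All CpGs stood from 20% to 80% in 14 of 14. The SD is a measure on the same CpGs whose mean chose the runs, so these counts carry no test.

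**Figure D2:**
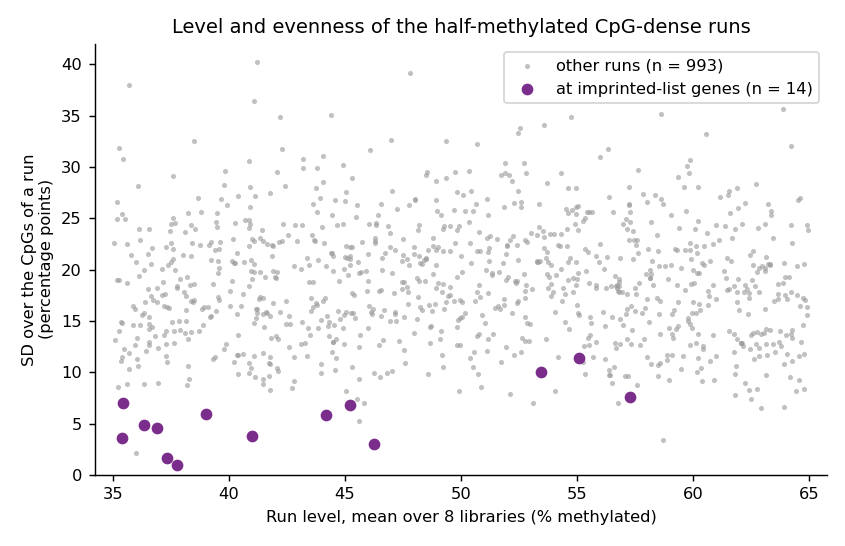
SD over the CpGs of a run (percentage points, vertical) against the run level (mean over 8 libraries, % methylated, horizontal), 1 point per half-methylated CpG-dense run. The 14 runs at imprinted-list genes (purple) lie between 0.962 and 11.4 points, while the other 993 (grey) have a median of 18.6 points.

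The Gnas cluster, which makes the alpha subunit of the stimulatory G protein and several imprinted transcripts from alternative promoters, held 3 of the 14. The run at chr2:174295489-174295709 was the most even of all 1007, with 10 CpGs whose means over the 8 libraries ran from 35.6% to 39.1%. It read 51.0%, 39.9%, 30.5% and 47.2% in cocaine mice 1 to 4 and 30.1%, 26.7%, 31.0% and 45.8% in saline mice 1 to 4. The groups overlapped. The evenness is that of the means: within a single library the CpGs of this run went from 21.4% to 49.4% in saline 1 and from 34.4% to 61.8% in cocaine 1. The run at chr2:174286688-174287123 read 30.1%, 37.8%, 22.9% and 39.8% in cocaine mice and 51.2%, 40.2%, 42.5% and 30.5% in saline mice, also overlapping. The third, at chr2:174298019-174298437, was less even (38.9% to 77.9% over its 17 CpGs) and averaged 56.3% ± 3.19 (SD, n = 4) in cocaine and 50.6% ± 3.55 in saline mice.

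On chromosome 17 the Igf2r locus, where the noncoding RNA Airn runs antisense to the receptor gene and can silence it on the paternal copy, also held 3. Whether Airn silences Igf2r in these cells was not tested. The Airn run at chr17:12741590-12741750 had 10 CpGs from 34.5% to 39.7%. Its levels were 28.2%, 32.9%, 53.2% and 36.5% in cocaine mice and 40.2%, 42.3%, 32.8% and 32.7% in saline mice, so that cocaine 3 was the highest of the 8. In the neighbouring Airn run, chr17:12742236-12742377, cocaine 3 was instead the lowest: the levels were 31.3%, 36.9%, 22.2% and 36.2% in cocaine mice and 34.7%, 40.8%, 41.3% and 39.7% in saline mice. The run within Igf2r at chr17:12689024-12689227 averaged 51.9% ± 1.99 in cocaine and 58.3% ± 11.6 in saline mice (n = 4 each), and its CpGs ran from 33.8% to 70.8%.

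Chromosome 6 carried runs at 3 paternally expressed genes. Beside Peg10, a gene derived from a retrotransposon, and its neighbour Sgce, the run at chr6:4747355-4747490 read 32.2%, 39.2%, 24.2% and 56.3% in cocaine mice and 45.6%, 49.0%, 32.3% and 49.1% in saline mice. Cocaine mice held both the lowest and the highest value there. Within Mest, which encodes a hydrolase-like protein, the run at chr6:30735294-30735509 averaged 55.9% ± 8.64 and 58.7% ± 7.99 (n = 4 each). This Mest level depends on the coverage minimum: over the cytosines with at least 20 reads in all libraries it was 68.9%, outside the window. At Nap1l5, a retrogene inside Herc3, the run at chr6:58906634-58906878 with 18 CpGs averaged 37.2% ± 4.01 and 40.8% ± 6.72.

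The remaining imprinted-list runs lay at 5 further loci. The Snrpn run (chr7:60005043-60005229) read 50.3%, 34.1%, 38.9% and 52.4% in cocaine mice and 55.0%, 51.2%, 35.9% and 52.1% in saline mice. The Meg3 run (chr12:109540574-109541071) read 30.1%, 22.8%, 47.8% and 35.7% in cocaine mice and 43.9%, 41.4%, 37.1% and 31.8% in saline mice. In both the groups overlapped over most of their range. The run within Inpp5f, a phosphoinositide phosphatase gene, at chr7:128688048-128688347 averaged 43.6% ± 5.99 and 46.9% ± 6.49 (n = 4 each). The run within Commd1, in whose intron the retrogene Zrsr1 sits, at chr11:22973867-22974253 averaged 34.3% ± 6.25 and 36.6% ± 8.20. The run within Cdh15, which encodes M-cadherin, at chr8:122865144-122865364 averaged 43.2% ± 13.2 and 45.2% ± 9.39.

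**Figure D3:**
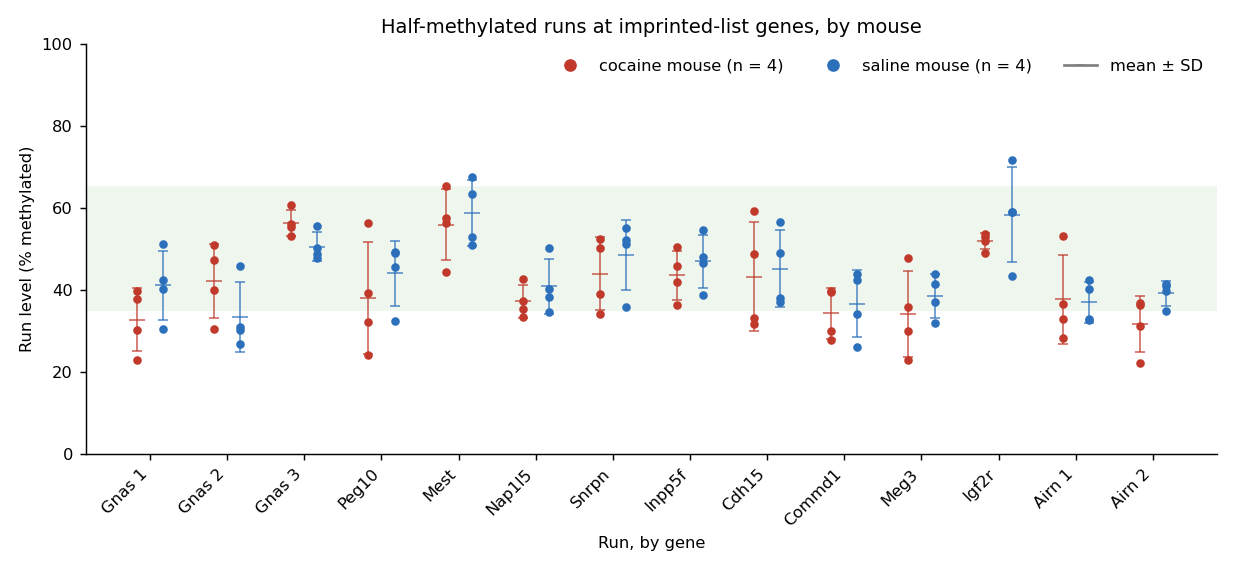
Run level (% methylated) of the 14 half-methylated runs at imprinted-list genes, 1 point per mouse (red cocaine, blue saline, n = 4 each) with group mean ± SD, and the window from 35% to 65% shaded. The points of the 2 groups overlap in every run, and single mice reach down to 22.2% and up to 71.7%.

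Although the means of their CpGs over the 8 libraries were even, the imprinted-list runs varied more from library to library than the other half-methylated CpG-dense runs. Each mouse gave 1 library, so this spread cannot be assigned to the mice. The SD between the 4 libraries of a group had a median of 8.31 points in the 14 runs and 6.05 points in the 993 others. It was 1.39 points in the other CpG-dense runs, whose median level of 2.08% lay near the floor of the scale. In the half-methylated runs of 3 to 9 CpGs it was 7.94 points, near the value of the imprinted-list runs. The range over the 8 libraries had medians of 23.7, 18.2, 4.11 and 24.1 points in the same order. Only 2 of the 14 stayed within 35% to 65% in all 8 libraries, and 370 of the 1007 did. Across all half-methylated runs, the more even the CpG means were, the wider was the spread between libraries. The median SD between libraries of a group was 8.60 points in the 10 runs with an SD over CpGs under 5 points. It was 5.28 points in the 34 runs from 30 points up.

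In most imprinted-list runs, neighbouring cytosines had like levels within a library. Neighbouring cytosines on the same strand were put in 1 block where their coverage agreed within 20% in every library, a grouping chosen after the data were seen. In the imprinted-list runs the SD within a library was 4.05 points inside such blocks and 12.4 points between blocks (medians), and it was larger between blocks in 13 of 14. The SD inside blocks reached 12.9 points in 1 of the 14. In the 971 other half-methylated runs with at least 2 blocks it was 15.9 points inside and 15.6 between, and larger between blocks in 471.

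The Snrpn run shows this directly. A block of 8 cytosines on the minus strand, bases 60005143 to 60005229, read 53.4%, 21.7%, 10.0% and 75.7% in cocaine mice and 100%, 55.6%, 31.1% and 58.8% in saline mice, on 27 to 82 reads. The neighbouring block of 4 cytosines on the same strand, bases 60005043 to 60005093, read 48.0%, 46.1%, 60.8% and 34.6% in cocaine mice and 37.1%, 47.2%, 42.4% and 44.4% in saline mice, on 74 to 135 reads. Saline 1 was fully methylated in the first block and at 37.1% in the second, and cocaine 3 was at 10.0% and 60.8%. The blocks' mean levels over 8 libraries agree more closely than the libraries do. The files carry no molecular identifiers, so how many DNA molecules stand behind the reads of a block was not tested.

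**Figure D4:**
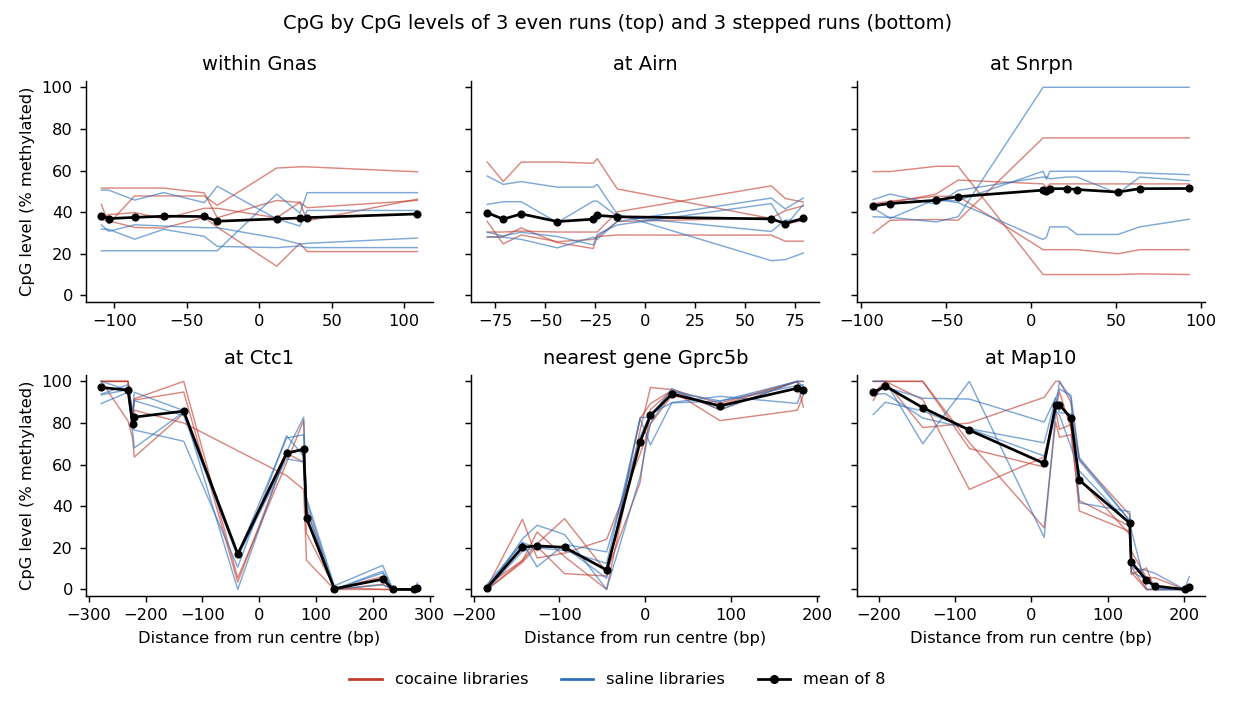
CpG level (% methylated) against distance from the run's centre (bp) in 3 even runs (Gnas, Airn and Snrpn, top) and 3 stepped runs (Ctc1, near Gprc5b, and Map10, bottom), with thin lines for the 4 cocaine (red) and 4 saline (blue) libraries and a black line for the mean of 8. The top means are flat while single libraries part from each other by whole stretches of CpGs, up to 10.0% against 100% at Snrpn, and the bottom libraries follow the same steps, from 97.7% to 0% at Map10.

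Evenness was not confined to the imprinted list. Of the 50 most even half-methylated CpG-dense runs, 12 were imprinted-list runs. The others lay outside the list, and only the most even of these are named here. The most even of them lay 19013 bp from Hpcal4, a gene of a neuronal calcium sensor (chr4:123164276-123164491), with 10 CpGs from 34.3% to 38.9%. It read 34.4%, 28.5%, 33.7% and 47.7% in cocaine mice and 40.4%, 36.3%, 29.4% and 48.2% in saline mice. Its blocks also parted: 22.9% and 53.8% in cocaine 1, for example. The next were a run 906 bp from an end of Gm30792 (chr2:45539000-45539182), at 36.0% with an SD over CpGs of 2.11 points, and a run near an end of Celf4, an RNA-binding protein gene of neurons (chr18:25478389-25478494), at 58.7% with 3.42 points. With the strands kept apart the Celf4 SD was 6.79 points.

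The 5 next most even runs outside the list each had an SD over CpGs from 5.23 to 7.01 points. They lay within Bbs9 (a subunit of a ciliary complex), Gm3327 and Rbm47 and near an end of Foxo6 (a forkhead factor) and of Gm30062. Bbs9 (chr9:22829691-22829914) read 41.8% ± 9.19 in cocaine and 49.4% ± 3.65 in saline mice (n = 4 each). Foxo6 (chr4:120267132-120267205) had 29.4 reads per cytosine and library and went from 38.0% in saline 1 to 82.3% in saline 3. Rbm47 (chr5:66019274-66019367), on 27.7 reads, went from 23.8% in saline 4 to 83.4% in saline 1. Nothing in these data tells which parent a methylated copy came from.

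The 4 runs with the widest range over the libraries all had fewer reads than the median run. Beside Rbm47 these were runs within Iqsec1 (an exchange factor of synaptic membranes, 16.8% to 76.8% on 32.0 reads), Nod2 (an innate immune sensor, 6.09% to 64.0% on 21.5 reads) and Frem2 (an extracellular matrix protein, up to 74.5% on 31.9 reads). The narrowest spread was at a run near an end of Gm20016 (chr12:57515707-57516103), which read 52.4% to 55.9% in the 8 libraries on 63.2 reads. A run near Aspdh and Josd2 stayed between 41.3% and 44.9%, one within Lef1, a factor of Wnt signalling, between 57.1% and 62.1%, and one within Rcbtb1 between 51.5% and 56.6%. These 4 steady runs were uneven inside, with an SD over CpGs from 12.3 to 28.0 points.

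The other gene lists held half-methylated runs too, all with an SD over CpGs of at least 8.84 points. Of 53 CpG-dense runs at germline genes, which are silenced by promoter methylation in body cells, 20 were below 35%, 6 half-methylated and 27 above 65%. The promoter run of Iho1, a meiotic recombination gene (chr9:108431855-108432123), read 54.8% with 1 CpG as high as 95.9%, and that of Pou5f1, the pluripotency factor (chr17:35505810-35506177), read 42.3% with CpGs from 10.2% to 80.3%. A run at Majin, which tethers meiotic telomeres, read 50.5%. Clustered protocadherins, cell surface proteins chosen neuron by neuron, had 7 half-methylated runs of 22 (31.8%). A run in the gamma cluster read 51.1% and the run at Pcdha1 read 48.3%, the latter with an SD over CpGs of 20.6 points. None of the 83 CpG-dense runs at Hox genes was half-methylated, and all 83 were below 35%.

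Genes of the tissue's own cells were also uneven. Of 58 CpG-dense runs at dentate granule cell genes, 7 were half-methylated, among them runs within Zfp536 (48.2%), near Sipa1l2 (53.7%), and at Gm36603 beside Lef1 (52.2%). Of 49 runs at genes of glia, vessels, interneurons and pyramidal cells, 4 were half-methylated. A run near an end of Gfap, the astrocyte filament gene, read 45.4%, one within Cspg4, the NG2 proteoglycan of oligodendrocyte precursors, read 51.9%, and one within Qrfp, which is on the list through the pyramidal cell gene Fibcd1 within 10 kb, read 37.2%. Cspg4 depends on the coverage minimum, at 29.3% over its cytosines with at least 20 reads. Zinc finger genes had 15 half-methylated runs of 372 (4.03%). Extracellular matrix genes had 20 of 172 (11.6%), with runs within Col4a2, a basement membrane collagen gene (48.0%), and at Gm13010, within 10 kb of the perlecan gene Hspg2 (49.9%).

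The comparison of cocaine with saline mice asked whether any of these runs differed in level after self-administration. None passed. The quasi-binomial test over all 92484 tested regions, with Benjamini-Hochberg adjustment, called 0 of the 1007. A call needed an adjusted p below 0.05 and at least 10 points between the group means, and the smallest adjusted p among these runs was 0.637. It called 0 of all regions too (0%). At an unadjusted p under 0.05 stood 82 of the 1007, or 8.14%, beside a background of 5.65% of all tested regions. Of these 82, 74 were lower in cocaine mice (7.35% of the runs, background 4.57%) and 8 higher (0.794%, background 1.08%). The other tool run, limma on logit levels, also called 0, and it placed 23 at an unadjusted p under 0.05, or 2.28% beside its background of 5.14%. Of those 23, 22 were lower in cocaine mice (2.18% of the runs, background 4.05%) and 1 higher (0.0993%, background 1.09%). The 2 tools thus put the share of these runs on opposite sides of the background over all tested regions. In the other tested runs of 10 to 19 CpGs the shares were 5.82% by the quasi-binomial test and 2.44% by limma. In the half-methylated runs of 3 to 9 CpGs they were 6.87% and 5.64%. The low limma share was thus also seen in the other CpG-dense runs.

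The run with the smallest p lay within Rbfox1, which encodes a neuronal splicing regulator (chr16:7352950-7353053, 10 CpGs). It read 45.1%, 52.3%, 49.8% and 56.6% in cocaine mice and 70.8%, 66.3%, 75.5% and 70.6% in saline mice. All 4 cocaine mice stood below all 4 saline mice, on 24.0 reads per cytosine and library. The strands disagreed there: at its 4 CpGs read on both strands, the plus strand minus the minus strand averaged -19.4 points. Over the 790 half-methylated runs with such CpGs, the median size of this difference was 4.27 points. The group means were 51.0% ± 4.79 and 70.8% ± 3.74, a difference of -19.9 points (quasi-binomial test, p = 0.000138, adjusted p = 0.637), which did not pass.

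Next came runs within Map7d1, a gene of a microtubule-associated protein (33.8% ± 6.54 in cocaine and 47.4% ± 5.65 in saline mice), and within Camta1, a calmodulin-binding transcription activator (48.5% ± 8.61 and 62.2% ± 5.84). The groups overlapped in both. In the run within Kif26b, a kinesin-like gene (chr1:178915051-178915421), the cocaine mice read 52.4%, 60.5%, 44.2% and 58.1% and the saline mice 68.8%, 64.7%, 66.0% and 66.6%, without overlap. A run with no protein-coding gene within 50 kb (chr8:121294162-121294635) read 32.3% ± 7.11 and 45.4% ± 1.60, also without overlap. Each of these 4 had an adjusted p of 0.876 by the quasi-binomial test, n = 4 mice per group.

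Where cocaine mice had the higher mean, the smallest p belonged to a run 8900 bp from Gm32719 (chr12:20231546-20231839), which was deeply read at 292.8 reads per cytosine and library. It read 69.1%, 73.4%, 62.3% and 61.9% in cocaine mice and 58.5%, 61.6%, 56.7% and 55.9% in saline mice. The groups did not overlap, but cocaine 4 at 61.9% and saline 2 at 61.6% nearly met. A run 2773 bp from Dhx34, an RNA helicase gene of nonsense-mediated decay, averaged 68.3% ± 1.97 and 58.3% ± 3.65. Near an end of Gm51563 the means were 65.2% ± 2.70 and 57.9% ± 4.06, both without overlap. The run 5620 bp from Racgap1 (45.7% ± 5.45 and 37.7% ± 3.24) and a run on chromosome 18 at bases 81178049 to 81178380 (48.5% ± 4.11 and 39.4% ± 5.65) overlapped. Each of these 5 also had an adjusted p of 0.876 by the quasi-binomial test, n = 4 per group. The Gm51563 and Racgap1 runs each had 1 CpG read on both strands. There the plus strand minus the minus strand was 48.7 points at Gm51563 and -16.9 points at Racgap1, beside the median size of 4.27 points.

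In 38 of the 1007 runs (3.77%, background 3.29% of all tested regions) every mouse of one group lay beyond every mouse of the other. Of these 38, 33 were lower in cocaine mice (3.28% of the runs, background 2.59%). A difference of at least 10 points was seen in 41 runs (4.07%, background 5.26%), of which 38 were lower in cocaine mice (3.77% of the runs, background 4.06%). That background joins unlike sets. Such a difference was seen in 52 of the 6200 other tested runs of 10 to 19 CpGs. It was seen in 1881 of the 13945 half-methylated runs of 3 to 9 CpGs. Among the 14 imprinted-list runs none was without overlap (0%, background 3.29%), and 14 runs are too few to read this as a difference. In 11 of the 14 the mean was lower in cocaine mice (78.6%, beside 61.8% of all tested regions and 70.6% of the 1007). The median difference over the 14 was -3.51 points. The Airn run at base 12742236 alone had an unadjusted p under 0.05 (p = 0.0261, adjusted p = 0.876 by the quasi-binomial test). Its means were 31.6% ± 6.75 and 39.1% ± 3.02 (n = 4 each), with cocaine 3 at 22.2%.

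Most of the half-methylated runs leaned slightly lower in cocaine mice. Their mean was the lower one in 711 of the 1007 (70.6%), beside 61.8% of all tested regions and 66.8% of the other tested runs of 10 to 19 CpGs. The median difference was -2.22 points, beside -1.06 over all tested regions and -2.09 over half-methylated runs of 3 to 9 CpGs. Averaged over the 1007 runs, the cocaine mice read 48.4%, 49.6%, 46.1% and 51.9% and the saline mice 49.9%, 51.1%, 51.5% and 52.1%. Cocaine 4 lay above 3 of the saline mice, and cocaine 3 was the lowest. The group means were 49.0% ± 2.40 and 51.1% ± 0.958 (SD, n = 4), a difference smaller than the SD among the cocaine mice. Without cocaine 3 the median difference was -1.44 points and 61.3% of the runs were lower.

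**Figure D5:**
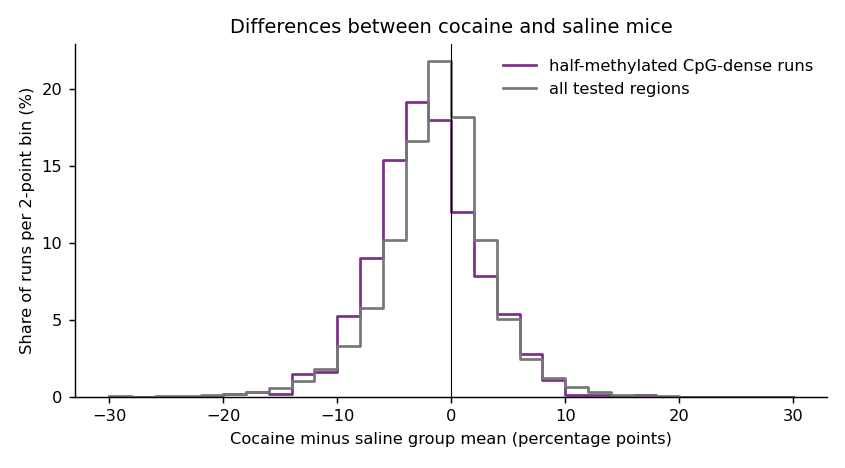
Share of runs (%) in each 2-point bin of the cocaine minus saline difference in group mean level (percentage points), for the 1007 half-methylated CpG-dense runs (purple) and all 92484 tested regions (grey); values beyond 30 points are drawn in the end bins. Both curves sit to the left of 0, with medians of -2.22 and -1.06 points.

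Saline 1 stood apart in the texture of its values. Among the cytosines of these runs with 30 to 40 reads, 20.5% read exactly 0% or 100% in saline 1, and 1.81% to 5.57% did in the 7 other libraries. Its median SD over the CpGs of a run was 26.0 points, beside 19.6 to 22.2. Its mean over the runs, 49.9%, lay among the other libraries. Without saline 1 the count at an unadjusted p under 0.05 by the quasi-binomial test was 118 (11.7%, beside 6.12% of all tested regions). The smallest adjusted p was then 0.613 and the median difference was -2.54 points. With saline 1 and cocaine 3 both left out, a choice made after seeing the data, the median difference was -1.64 points and 64.9% of the runs were lower in cocaine mice.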

How the data were processed

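The 8 deposited files, 1 per mouse, list CpG cytosines by strand. Per the submitters' processing notes, bcl2fastq and Bismark 22.1 with build mm10 were used. Trimming and removal of duplicate reads: not given in the sources used here. Per the file headers the level is a percent, but what the authors deposited is a fraction (0 to 1), turned into percent here. Coverage, as deposited, counts reads and is at least 10 per cytosine. Level times coverage gave whole methylated reads at 100% of cytosines (to rounding), and these recovered counts were used. The files held 87964952 to 141775386 reads each, with a median coverage of 34 to 66.

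Groups came from the titles. Of the cytosines, 1510385 on chromosomes 1 to 19, X and Y had at least 10 reads in all 8 libraries. A run's level is its methylated reads over all its reads. Runs with at least 3 CpGs and a pooled level from 5% to 95% (92484) were tested by quasi-binomial logistic regression on group. The Pearson dispersion was moderated with limma 3.58.1 (squeezeVar, trend on log coverage, floor of 1, R 4.3.3). P-values came from an F test and were adjusted by Benjamini-Hochberg over all tested regions. The test was also run on simulated reads drawn with 1 common spread for all regions. The shared trend there had 1967 prior degrees of freedom (its weight), beside 11.4 in these data. That run therefore does not check p-values where the spread differs from region to region. Intervals from read counts alone were not used, since copies of a molecule cannot be recognised. The labels give 4 mice per group, each with 1 library. P-values therefore rest on the spread between libraries, in which mouse, preparation and read sampling are joined. Part of that spread is borrowed from the trend over all regions, whose 11.4 prior degrees of freedom stand beside 6 of the run's own.

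Gene positions and promoter windows came from RefSeq tables of GRCm38.p6. The gene table has no exons, so exon, intron and UTR were not used here. A run was placed at a promoter window first, then at a gene end within 1 kb, inside a gene, or by the nearest protein-coding gene. CpG levels merge both strands.

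The runs, gene lists and tests were chosen with earlier results of these data known. Named are all runs in or within 10 kb of an imprinted-list gene, and, outside that list, the 8 most and 4 least even runs. Also named are the 5 smallest p per direction, the 4 widest and 4 narrowest ranges over libraries, up to 3 per other list nearest to 50%, and runs beside the level limits. Of the 2 runs on each side of a limit, 1 is given. Promoters printed beside the imprinted and steepest ones (Lep) and the microRNA runs were chosen after their values were seen. The lowest mean chi-square per region between 2 libraries was 4.74, so no library repeated another. Alternatives were another test, a replicate block, unweighted levels, other limits on coverage, gap and level, and leaving out each mouse.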

Additional observations from a re-analysis of the deposited data

Results flagged for a closer look

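In 5 of the 120 groups of 4 values looked at, 1 library stood far from the other 3 of its group (its gap to the nearest exceeded Dixon's 95% critical share of the range), and chance gives about 1 in 20. In the run near an end of Gm30062, saline 2 read 66.9% and the other saline mice 52.1% to 52.7%. In the Ctc1 run, saline 1 read 53.4% and the others 41.2% to 43.1%. In the Rcbtb1 run, cocaine 3 read 51.5% and the others 53.8% to 54.0%. In the Pcdha1 run, saline 1 read 41.2% and the others 48.7% to 49.4%. The median SD over the CpGs of a run was 20.6 points in cocaine 2 and 22.0 to 22.2 points in the other cocaine libraries.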

How the results depend on the processing

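No alternative called any of the half-methylated runs, and the median difference stayed negative under each alternative tried. The count of 82 at an unadjusted p under 0.05 (8.14%, background 5.65% of all tested regions) was 23 with limma on logit levels (2.28%, background 5.14%). It was 31 with limma on unweighted mean levels (3.08%, background 5.55%). A coverage minimum of 20 gave 45 of 560 runs (8.04%, background 5.42%). Gaps of at most 50 or 200 bp gave 42 of 430 (9.77%, background 5.57%) and 146 of 1529 (9.55%, background 5.62%). Leaving out 1 mouse at a time gave 66 such runs (6.55%, background 4.91%, without cocaine 1) to 118 (11.7%, background 6.12%, without saline 1). The median difference then ran from -3.04 to -1.44 points and 61.3% to 74.5% of runs were lower in cocaine mice. The same rule chose 1003 to 1024 runs. The number of runs was 430 with gaps of at most 50 bp, 1529 with gaps of at most 200 bp and 560 with a coverage minimum of 20. The rule on the cocaine or the saline mice alone chose 1002 and 1026 runs, of which 936 and 943 were among the 1007.

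With the replicate number as a block, the quasi-binomial fit gave 92 runs at an unadjusted p under 0.05 (9.14%, background 5.94%). Limma on logit levels with that block gave 21 (2.09%, background 5.02%), and neither called any. Deviations of mice with the same number had correlations from -0.0169 to 0.0772, and those of mice with other numbers from -0.139 to 0.0644. The labels used here do not state whether the numbers pair the mice, and such correlations cannot decide it.

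Of 272 differences of single runs, 10 changed sign, all of them far from the threshold, and the cause was not tested. Leaving out 1 mouse at a time, the Airn run at base 12741590 went from -4.48 to 3.88 points, Cdh15 from -7.34 to 1.89, Commd1 from -5.83 to 0.0938 and Mest from -5.99 to 0.982. Mest was at 2.84 points with a coverage minimum of 20, where fewer cytosines remain. Of 573 single-run levels 16 moved by more than the spread between libraries, and of 109 single-run SDs over CpGs 5 did.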
